A study of Mus musculus with 4 samples.

Results

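Chromatin accessibility at 9 genes of glucose and glycogen metabolism was followed in mouse hepatocytes after partial hepatectomy (PHx), a standard operation in which liver lobes are taken out. The genes were G6pc, Pck1, Fbp1, Pcx, Gys2, Pygl, Ppp1r3b, Ppp1r3c and Slc2a2. They were chosen by their known roles, with earlier results of these data in view, and all 9 passed the minimum level that 15478 of 21728 protein-coding genes passed. The level of a gene is the number of transposase cut sites in peaks that touch the gene body or the 2 kb upstream of it, summed over nuclei and given as counts per 1000000 counts in peaks of the nuclei kept from the library (CPM). Gene models were those of GENCODE vM21 on mm10.

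Single-cell ATAC-Seq (scATAC-Seq), which marks open DNA by where the Tn5 transposase can cut it, was done on nuclei of hepatocytes isolated by collagenase perfusion. There was 1 library from undamaged liver (PHx 0 h) and 1 from each of 48, 72 and 96 h after PHx. All mice were C57BL/6J males on a normal diet with no allele, transgene or drug named for any group, and the labels give an age of 10 to 12 weeks. The libraries at 0 and 48 h each came from 1 hepatocyte preparation, and whether animals were pooled at 72 and 96 h was not stated in the sources used here. With 1 library per time point, no difference between time points could be tested, and time after PHx and library cannot be told apart. Intervals below are 95% Poisson or binomial intervals and cover counting error only. A gene was called past the fold at 1.5 times the 0 h level in either direction.

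The liver releases glucose between meals by making it anew and from its glycogen store. In gluconeogenesis, Pcx and Pck1 turn pyruvate into phosphoenolpyruvate, Fbp1 removes a phosphate from fructose bisphosphate, and G6pc frees glucose from glucose 6-phosphate. Glycogen, the branched store of glucose, is built by the liver synthase Gys2 and broken down by the phosphorylase Pygl, and the scaffold proteins Ppp1r3b and Ppp1r3c bring protein phosphatase 1 to it, while the transporter Slc2a2 (GLUT2) moves glucose across the hepatocyte membrane in both directions. After PHx a smaller liver must hold blood glucose while its hepatocytes divide.

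The libraries held 136949314, 62553202, 25540258 and 15809769 counts in peaks at 0, 48, 72 and 96 h, and 3977, 3892, 4256 and 3224 barcodes with at least 1000 counts, called nuclei here, which held 136582768, 62000846, 24724883 and 14935507 of these counts. Between 681 and 882 deposited barcodes were found in both libraries of a pair, but only 27 to 60 of these were nuclei in both. Without any barcode found in more than 1 library the members' median log2 ratios were -1.002, -1.36 and -1.01 at 48, 72 and 96 h, Fbp1 passed the fold at 48 h with -0.59, and Pck1 at 96 h was at -0.01. Peaks were called in each library on its own, so the same gene was covered by peaks of different length: the peaks totalled 153.6, 179.0, 141.2 and 60.9 Mb. Across genes, the log2 ratio of counts to 0 h went with the log2 ratio of covered peak length, with Pearson correlations of 0.88, 0.91 and 0.84 at 48, 72 and 96 h over points that share the same peaks and libraries. The covered length, and the level per kb of it, are therefore given beside each member's counts. All 10 hepatocyte markers, among them Alb, Apob and Hnf4a, had counts in every library, and their summed level was between 3788 and 5487 CPM. The summed levels of the other marker lists were 204 to 333 CPM for 10 endothelial genes, 273 to 433 CPM for 8 Kupffer and myeloid genes, 76.6 to 159 CPM for 8 stellate genes and 118 to 149 CPM for 5 cholangiocyte genes. At 0 h Cdh5, Clec4f, Adgre1, Lyz2, Des, Dcn, Krt19 and Krt7 had no counts, and at 96 h these and Colec11 had none. Stellate markers moved with time, at 76.6, 116, 159 and 134 CPM, and 2, 3 and 4 of the 4 tested were at least 1.5-fold higher at 48, 72 and 96 h, beside 14.2%, 20.3% and 19.1% of all genes. Of the 8 endothelial genes tested 1, 4 and 2 were higher and 0, 0 and 2 lower, and of the 5 myeloid genes tested 1, 2 and 2 were higher and 0, 0 and 1 lower. The part of these cells in the results below was not tested, beyond leaving out nuclei low in hepatocyte markers.

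The 9 genes were lower than at 0 h at every time after PHx, apart from Pck1 at 96 h. Their summed level was 3559, 1795, 1445 and 2132 CPM at 0, 48, 72 and 96 h. At 48 h, 8 of the 9 were at least 1.5-fold lower, against 7.44% of all genes tested, and none was 1.5-fold higher, against 14.2%. At 72 h all 9 were at least 1.5-fold lower, against 16.5% of all genes, and none was higher, against 20.3%. At 96 h 6 of the 9 were at least 1.5-fold lower, against 17.9%, and none was higher, against 19.1%. The median log2 ratio of the 9 was -0.99, -1.35 and -1.01 at 48, 72 and 96 h, beside -0.04, -0.02 and 0.08 over all genes tested. The members short of the fold were Fbp1 at 48 and 96 h, and Pck1 and Ppp1r3b at 96 h. A lower level summed over nuclei can stand for fewer open nuclei or for fewer cuts in each, which a sum cannot tell apart.

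**Figure D1:**
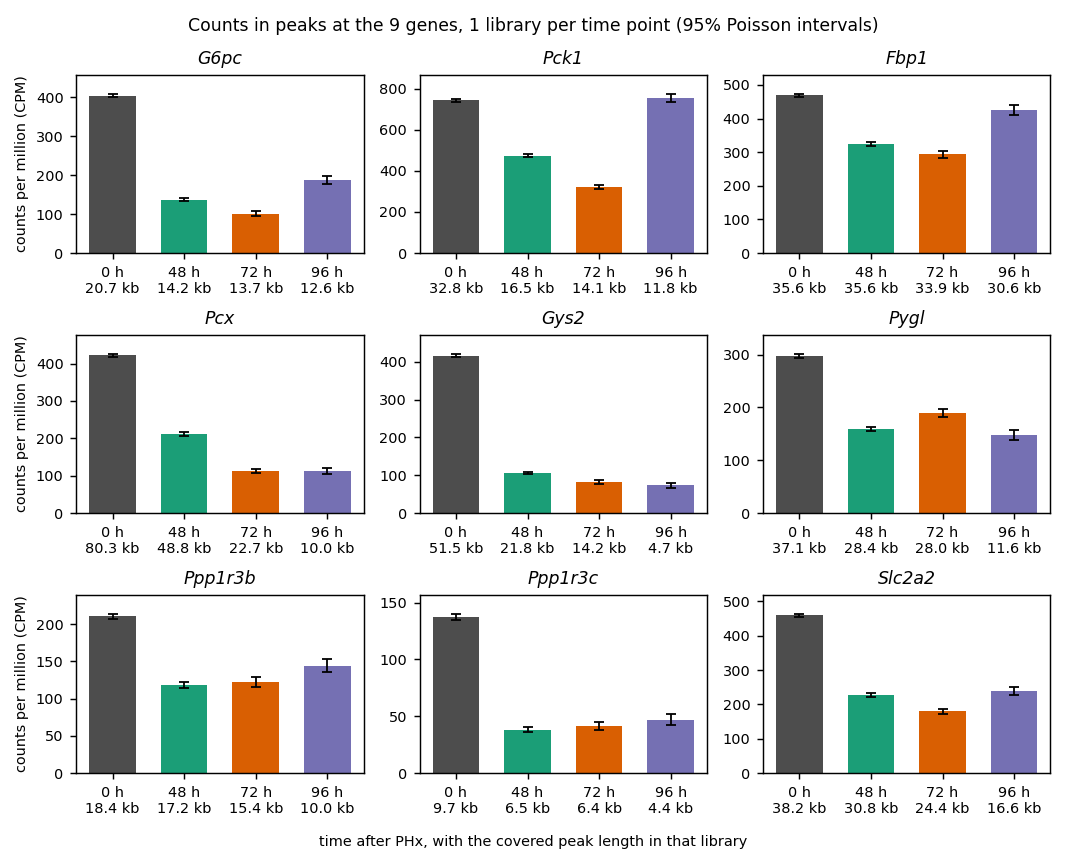
CPM in peaks at each of the 9 genes (bars, from 0) in the 4 libraries, with 95% Poisson intervals and, under each time point, the covered peak length in kb. The 0 h bar is the tallest for 8 genes, and for Pck1 the 0 h and 96 h bars are level at 743 and 755 CPM.

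The peaks at these genes were also shorter after PHx. Covered length was below that of 0 h for 8 of the 9 genes at 48 h and for 9 of 9 at 72 and 96 h, with median log2 length ratios of -0.55, -0.59 and -1.199, beside 0.15, -0.14 and -1.10 over all genes. Per kb of covered peak, 8 of the 9 were lower than at 0 h at 48 h and at 72 h, but 7 of the 9 were higher at 96 h. The median log2 ratio per kb was -0.70, -0.53 and 0.33 for the 9 genes and -0.21, 0.17 and 1.26 for all genes with a peak in both libraries. On this scale 8, 9 and 8 of the 9 lay below the median of all genes at 48, 72 and 96 h. With each peak scored only as cut or uncut in a nucleus, where a long peak adds at most 1 and the pieces of a divided peak add 1 each, the median log2 ratio of the 9 was -0.05, 0.12 and 0.88, so the direction at 72 and 96 h turned. These scores were not matched for depth, and the median counts per nucleus were 26005, 11629, 4841 and 3681.5 at 0, 48, 72 and 96 h. A peak also adds at most 1 in a deep nucleus, so peak length and depth cannot be told apart on this scale. Calls moved with the scale too. Per kb 5, 4 and 0 of the 9 were at least 1.5-fold lower at 48, 72 and 96 h, beside 8.34%, 1.94% and 0.0653% of all genes, and 4 were higher at 96 h, beside 93.4%. Scored as cut or uncut, 2, 1 and 1 were lower, beside 5.22%, 16.6% and 17%, and 2, 4 and 5 were higher, beside 9.5%, 15.2% and 13.5%. Long peaks at 0 h were common to these genes, so the 3899 genes with at least 9685 bp covered at 0 h, the length of the shortest member, were also looked at for 48 h: 15.4% of them were at least 1.5-fold lower and their median log2 ratio was -0.11. The same shares were 32.9% of 3898 genes at 72 h and 37.2% of 3887 genes at 96 h, with medians of -0.28 and -0.35.

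**Figure D2:**
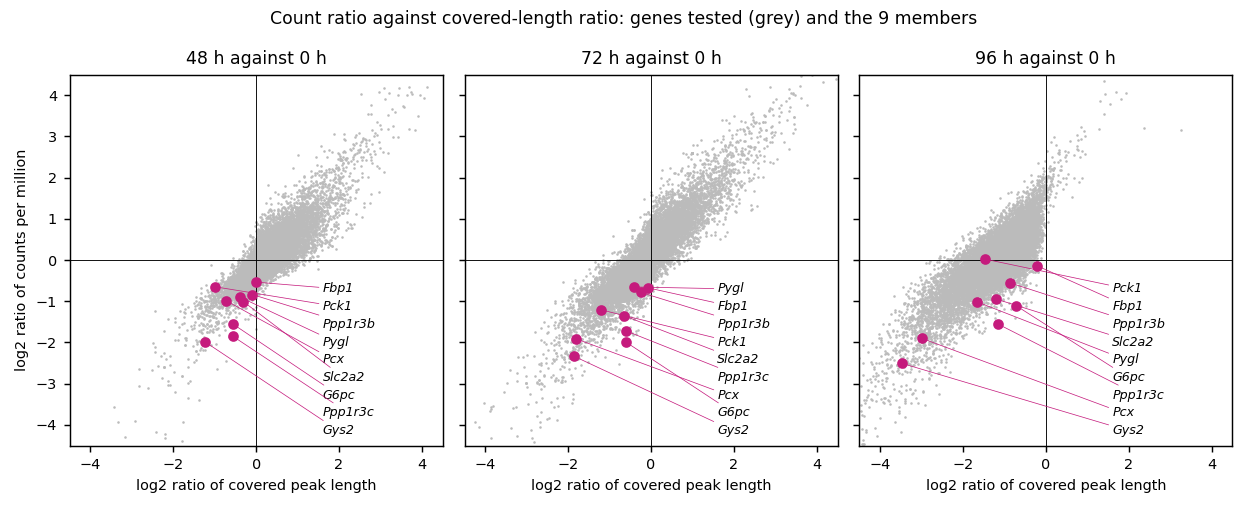
Log2 ratio of CPM against log2 ratio of covered peak length for each time point over 0 h, with the genes tested in grey and the 9 members in colour; 18, 31 and 38 genes lie beyond the axes at 48, 72 and 96 h. All 9 members lie below 0 on the count axis at 48 and 72 h and 8 do at 96 h, while on the length axis they spread from Gys2, the member farthest left, to Fbp1, the farthest right.

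Levels can be compared between genes only per kb of peak. In undamaged liver the order was Pck1 at 22.7 CPM per kb, G6pc at 19.5, Ppp1r3c at 14.2, Fbp1 at 13.2, Slc2a2 at 12.0, Ppp1r3b at 11.4, Gys2 at 8.08, Pygl at 8.03 and Pcx at 5.25. The counting intervals of Gys2 and Pygl overlapped, and those of all other neighbours in this order did not overlap. Pck1 led at every time point and Pcx was lowest at 0, 48 and 72 h, while Ppp1r3c went from the third place at 0 h to the last at 96 h, where its interval overlapped that of Pcx.

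G6pc is the catalytic subunit of glucose-6-phosphatase, the last step of both glucose-releasing routes (chr11:101367561-101377903, plus strand). The 300 bases around its RefSeq start (GRCm38.p6, chr11:101367466-101367765, plus strand) are shown because the peak over them was cut short at 96 h. Capitals mark, in order, matches to the HNF1 core, the insulin response sequence core, the forkhead core and the TATA box, whose letters are given with the motif search.
G6pc: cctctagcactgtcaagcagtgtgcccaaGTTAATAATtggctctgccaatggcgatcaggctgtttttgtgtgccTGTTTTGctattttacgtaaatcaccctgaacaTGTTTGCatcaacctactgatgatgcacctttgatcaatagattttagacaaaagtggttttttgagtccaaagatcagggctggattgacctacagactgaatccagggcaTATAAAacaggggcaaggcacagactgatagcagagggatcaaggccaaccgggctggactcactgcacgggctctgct
The gene had 404, 136.97, 101 and 188 CPM at 0, 48, 72 and 96 h, with intervals of 399 to 409, 133 to 141, 95.6 to 107 and 178 to 198. The undamaged liver stood far above all later libraries, 72 h was lowest, and no interval overlapped another. The log2 ratios to 0 h were -1.56, -1.998 and -1.11. A single peak of 20734 bp covered the whole gene at 0 h, and the covered length was 14155, 13730 and 12571 bp afterwards. Per kb the level was 19.5, 9.68, 7.36 and 14.9 CPM, so G6pc remained below its 0 h level at all 3 times on this scale too. Among all genes with a peak in both libraries, its log2 ratio per kb lay at percentiles 1.04, 0.08 and 0.12 at 48, 72 and 96 h, near the lowest.

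Pck1 is the cytosolic phosphoenolpyruvate carboxykinase, a gene known for its fast response to hormones (chr2:173153048-173159273, plus strand). Its promoter (GRCm38.p6, chr2:173152823-173153122, plus strand) is shown because Pck1 was the one member not below its 0 h level per kb at any of the 3 times, and capitals mark a match to the core of the cyclic AMP response element.
Pck1: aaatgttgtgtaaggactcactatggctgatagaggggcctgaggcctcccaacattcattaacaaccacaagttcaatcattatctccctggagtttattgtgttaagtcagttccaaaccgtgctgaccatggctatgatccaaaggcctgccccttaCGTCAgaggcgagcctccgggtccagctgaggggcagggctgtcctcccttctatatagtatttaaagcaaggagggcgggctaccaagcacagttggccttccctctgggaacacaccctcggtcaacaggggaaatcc
The level was 743, 474, 322 and 755 CPM at 0, 48, 72 and 96 h, with intervals of 737 to 749.9, 467 to 482, 312 to 332 and 736 to 775. The 0 h and 96 h intervals overlapped, and both stood above 48 and 72 h. The log2 ratios were -0.65, -1.21 and 0.02. Covered length was 32796 bp at 0 h and 16454, 14119 and 11808 bp later, and most of the part that was missing after PHx lay upstream: the 0 h peak began 18.7 kb before the gene and those of 48, 72 and 96 h began 2.3, 2.0 and 2.0 kb before it. Per kb of peak the order was different, with 22.7 CPM at 0 h, 28.8 at 48 h, 22.8 at 72 h and 64.0 at 96 h. On this scale 96 h stood far above the others, 72 h was level with 0 h, and no time point was below 0 h. Most genes were higher per kb at 96 h, with 93.4% of all genes at least 1.5-fold higher. Among all genes with a peak in both libraries, the log2 ratio of Pck1 per kb lay at percentiles 95.9, 30.0 and 71.3 at 48, 72 and 96 h.

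Fbp1 is the liver fructose-1,6-bisphosphatase (chr13:62864753-62888282, minus strand). It had 469, 323, 294 and 426 CPM at 0, 48, 72 and 96 h, with intervals of 464 to 474, 317 to 329.7, 284 to 303 and 412 to 441. The 4 intervals did not overlap, with 0 h highest and 96 h next. The log2 ratios of -0.54, -0.68 and -0.14 were past the fold only at 72 h. Fbp1 gave the most even comparison of the 9, since its peak was 35629 bp long at 0 h, 35640 bp at 48 h and 33886 bp at 72 h. Per kb it had 13.2, 9.07, 8.67 and 13.9 CPM. Restricting all genes to peaks that pair one to one with a 0 h peak of near-equal length left Fbp1 at a log2 ratio of -0.41 at 48 h, where the median of 13811 genes was -0.01. The neighbouring gene Fbp2, the muscle form of the enzyme, lay in the same peak, which held all of the Fbp1 counts at 0, 48 and 72 h and 72.8% at 96 h, so counts at the pair cannot be told apart there.

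Pcx is pyruvate carboxylase, the mitochondrial enzyme that makes oxaloacetate (chr19:4510472-4621752, plus strand). Its level was 422, 212, 112 and 113 CPM at 0, 48, 72 and 96 h, with intervals of 417 to 427, 207 to 217, 107 to 118 and 106 to 121. The 72 and 96 h intervals overlapped and all other pairs stood apart. The log2 ratios were -0.99, -1.91 and -1.90. This 111 kb gene had 30 peaks over 64.5% of its body at 0 h, 27 over 36.5% at 48 h, 28 over 18.1% at 72 h and 15 over 8.29% at 96 h. Per kb of peak the values were close at 5.25, 4.34 and 4.95 CPM at 0, 48 and 72 h, with 11.3 at 96 h. The 0 h peak at its 3' end, with 25.8% of the counts, also touched Gm960, Lrfn4 and Rce1. In 5 peaks of near-equal length at 0 and 48 h the log2 ratio was -0.70.

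Gys2 is the liver form of glycogen synthase, the enzyme that lengthens glycogen chains (chr6:142422613-142473109, minus strand). It had 416, 106, 82.5 and 73.2 CPM at 0, 48, 72 and 96 h, with intervals of 412 to 421, 102 to 109, 77.5 to 87.7 and 67.2 to 79.6. The undamaged liver was apart from all later libraries, and the 72 and 96 h intervals overlapped. The log2 ratios of -1.98, -2.34 and -2.51 were the lowest of the 9 genes at each time. At 0 h 2 peaks covered 88.4% of the gene body. At 48, 72 and 96 h 11, 15 and 6 peaks covered 41.2%, 26.5% and 8.27%, and the total length was 51525, 21754, 14230 and 4653 bp. Per kb of peak Gys2 had 8.08 CPM at 0 h, 4.85 at 48 h, 5.80 at 72 h and 15.7 at 96 h. Its log2 ratios per kb of -0.74, -0.48 and 0.96 stood beside -0.21, 0.17 and 1.26 for the median of all genes. At 0 h one peak, with 15.9% of the counts, also touched Spx.

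Gys2 had the widest range of log2 ratios among the members when 0 h is counted as 0. The 3 genes tested whose log2 ratios were nearest to its own over the 4 libraries were Spryd4, Sae1 and Tmem106a, at Euclidean distances of 0.16, 0.25 and 0.28. They lie on chromosomes 10, 7 and 11.

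Pygl is the liver glycogen phosphorylase, which releases glucose units from glycogen (chr12:70190811-70231488, minus strand). Its level was 298, 159, 189 and 148 CPM at 0, 48, 72 and 96 h, with intervals of 294 to 302, 155 to 164, 182 to 197 and 139 to 157. It was lowest at 96 h, where the interval overlapped that of 48 h, and 72 h stood between these and 0 h. The log2 ratios were -0.90, -0.65 and -1.01. Covered length was 37111, 28421, 27988 and 11624 bp, and the level per kb was 8.03, 5.60, 6.77 and 12.7 CPM. In the peak at its start, 6060 bp long at 0 h with 5892 bp at 48 h, the log2 ratio in near-equal peaks was -0.49.

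Ppp1r3b and Ppp1r3c encode glycogen-targeting subunits of protein phosphatase 1, which turn synthesis on by removing phosphates. Ppp1r3b (chr8:35375739-35388139, plus strand) had 210.4, 118, 122 and 144 CPM at 0, 48, 72 and 96 h, with intervals of 207 to 214, 114 to 122, 116 to 129 and 135 to 153. Only the 48 and 72 h intervals overlapped, and 96 h lay between them and 0 h. The log2 ratios were -0.84, -0.78 and -0.55, the last short of the fold. Covered length was close at 0 and 48 h, with 18391 and 17177 bp, and then 15425 and 10007 bp. Per kb it had 11.4, 6.86, 7.92 and 14.4 CPM, so that at 48 h nearly all of the difference was in density.

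Ppp1r3c (chr19:36731731-36736653, minus strand) had 137.5, 38.2, 41.6 and 46.8 CPM at 0, 48, 72 and 96 h, with intervals of 135 to 140.3, 36.0 to 40.4, 38.1 to 45.4 and 42.0 to 52.0. The 0 h library stood alone, while the 72 h interval overlapped both neighbours. The log2 ratios were -1.85, -1.72 and -1.55. Covered length was 9685, 6547, 6418 and 4354 bp, and the level per kb was 14.2, 5.83, 6.48 and 10.7 CPM, below 0 h at all 3 times. With G6pc it was 1 of 2 members lower per kb at 96 h, at percentiles of 0.28, 0.24 and 0.09 among all genes at 48, 72 and 96 h. Its promoter (GRCm38.p6, chr19:36736555-36736854, minus strand) is shown as that of the glycogen gene with the lowest log2 ratio per kb at each time, and capitals mark a match to the E-box.
Ppp1r3c: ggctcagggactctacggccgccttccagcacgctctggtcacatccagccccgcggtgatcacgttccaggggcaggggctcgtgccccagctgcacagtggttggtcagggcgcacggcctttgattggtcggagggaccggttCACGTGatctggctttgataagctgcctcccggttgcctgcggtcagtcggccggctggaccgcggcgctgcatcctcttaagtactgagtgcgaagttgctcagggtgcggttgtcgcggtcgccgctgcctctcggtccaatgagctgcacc

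Slc2a2 encodes GLUT2, the main glucose transporter of hepatocytes (chr3:28697903-28731359, plus strand). It had 459, 228, 179.7 and 238 CPM at 0, 48, 72 and 96 h, with intervals of 454 to 464, 223 to 234, 172 to 187 and 227 to 249.6. The 48 and 96 h intervals overlapped, 72 h was lowest and 0 h highest. The log2 ratios were -1.01, -1.35 and -0.95. At 0 h a single peak of 38179 bp held the gene from 4.1 kb before its start to past its end, and at 48, 72 and 96 h there were 5, 6 and 9 peaks over 79.6%, 64.0% and 42.0% of the body. Per kb it had 12.0, 7.41, 7.37 and 14.3 CPM. The promoter (GRCm38.p6, chr3:28697653-28697952, plus strand) is shown because the peak over it, 38179 bp at 0 h, was 21621, 8696 and 5576 bp long later. Capitals mark a match to the HNF4 half-site.
Slc2a2: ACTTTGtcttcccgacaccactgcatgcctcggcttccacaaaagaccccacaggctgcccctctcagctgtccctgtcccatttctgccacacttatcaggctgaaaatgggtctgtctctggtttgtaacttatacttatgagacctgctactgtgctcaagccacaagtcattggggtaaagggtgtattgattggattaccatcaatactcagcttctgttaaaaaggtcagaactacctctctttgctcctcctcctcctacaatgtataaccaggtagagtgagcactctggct

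**Figure D3:**
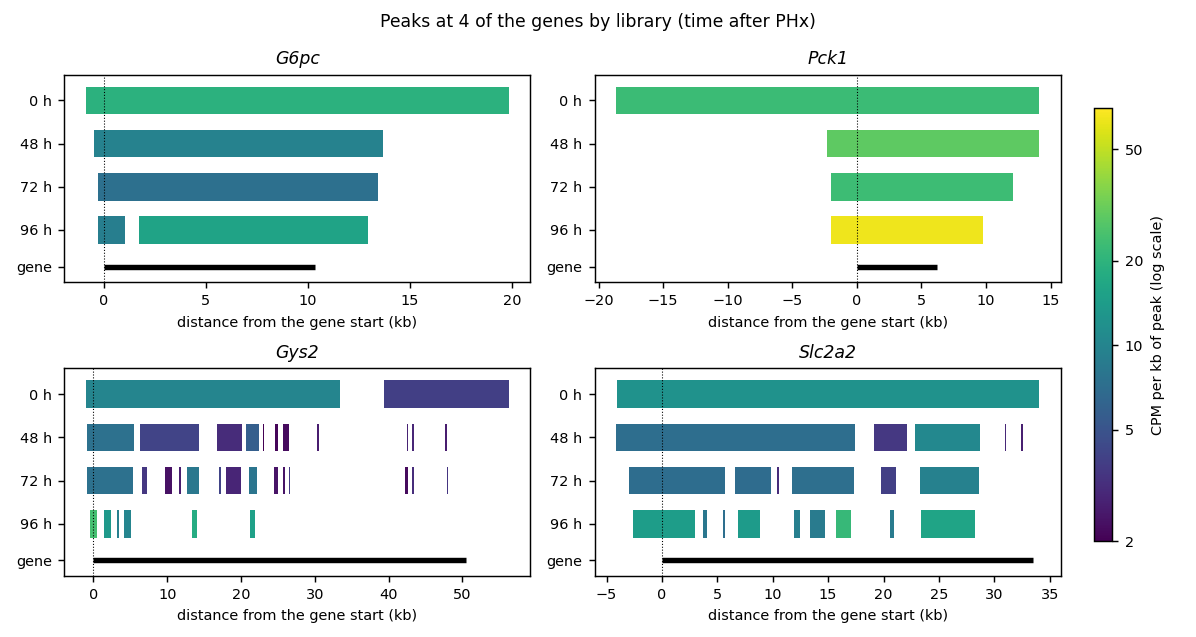
Peaks called in each library at G6pc, Pck1, Gys2 and Slc2a2 by distance from the gene start in kb (bars), with the gene body in black and colour giving CPM per kb of peak on a log scale whose darkest shade holds all values under 2. The long 0 h peaks are cut into shorter ones by 96 h at Gys2 and Slc2a2, the Pck1 peak loses its upstream part, and the Pck1 peak at 96 h is the densest at 64.0 CPM per kb.

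Counts over promoters were no separate measure for some of the members, since whole peaks were counted. For G6pc, Pck1, Fbp1 and Ppp1r3b at 0 and 48 h, and for all but Ppp1r3b of these at 72 h, the promoter and gene counts came from the same peaks. A promoter was 250 bp before to 50 bp after the start of any annotated protein-coding transcript, and every peak that touched it was counted. At 48 h 8 of the 9 were at least 1.5-fold lower, beside 10.4% of 13069 genes, and none was higher, beside 10.4%. At 72 h 9 of 9 were lower, beside 20.1%, and none was higher, beside 14.2%. At 96 h 8 of 9 were lower, beside 16.6%, and none was higher, beside 22.1%. The median log2 ratios were -0.96, -1.73 and -2.52, beside -0.20, -0.12 and 0.17 over all genes. The size at 96 h went with how peaks were cut: the length of the G6pc peak over the promoter was 20734 bp at 0 h but 1341 bp at 96 h, when a second peak of 11230 bp began 1.7 kb after the start, and its promoter log2 ratio was -5.05 beside -1.11 for the gene. Likewise the Fbp1 promoter peak was 3036 bp at 96 h after 35629 bp at 0 h, with a log2 ratio of -2.85 beside -0.14 for the gene. Weighted by the share of each peak inside the promoter, the median at 48, 72 and 96 h was -0.62, -0.44 and 0.70.

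Promoter sequences of RefSeq (GRCm38.p6, 250 bases before to 50 after a start) were searched on both strands for 7 short motifs of factors known at such genes. RefSeq entries were matched for 7 of the 9 genes, with 8 promoters because Pcx has 2, and Gys2 and Ppp1r3b were not matched. The cyclic AMP response element core TGACG was found in Pck1 at -90 and in Pygl at -44 relative to the RefSeq start, and in 20.8% of all 32851 promoters. The Pygl entry (chr12:70227634-70227933, minus strand) lies inside the gene body, outside the peak described above as at the start of Pygl. G6pc held the insulin response sequence core TGTTTTG at -174 (6.28% of promoters), the forkhead core TGTTTGC at -141 (5.07%), the HNF1 core GTTAATNAT at -221 (0.80%) and the TATA box TATAAA at -29 (13.6%). The HNF4 half-site CAAAGT was found in Slc2a2 at -250 and in the downstream Pcx promoter at 19 (14.4%), and the E-box CACGTG in Ppp1r3c at -104 and the upstream Pcx promoter at -248 (7.15%). TGTTTTG and TGTTTGC share their initial 5 letters, but no matches overlapped. The Fbp1 promoter held none of the 7. GC content ranged from 46.7% at G6pc to 67.0% at Pygl, beside a median of 52.7% over all promoters.

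Counted per nucleus, the genes were touched in fewer nuclei after PHx. Each nucleus was thinned to 2000 counts, which left 3580, 3493, 3447 and 2456 nuclei, after nuclei low in hepatocyte markers were set apart. G6pc had a count in 49.0%, 19.1%, 13.8% and 22.2% of nuclei at 0, 48, 72 and 96 h, with an interval of 47.3 to 50.6% at 0 h. For Gys2 the shares were 54.0% at 0 h (52.4 to 55.7%), 16.4%, 12.5% and 10.5%. Pck1 was seen in 71.6%, 53.7%, 36.6% and 62.0%, and Slc2a2 in 57.2%, 31.9%, 25.01% and 30.5%. For Ppp1r3c they were 21.2% at 0 h and 6.50%, 6.32% and 7.13% later. Over the 9 genes the median share was 52.6%, 24.6%, 17.9% and 19.3%. These shares also follow covered length, since a longer peak catches more cuts. Without thinning the G6pc shares were 83.5%, 46.0%, 21.3% and 28.1%.

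At 0 h the members were more open in nuclei with hepatocyte markers than in the others. In each library, nuclei with more counts at endothelial, myeloid, stellate and cholangiocyte markers than at hepatocyte markers were set apart, which gave 169, 141, 331 and 79 nuclei at 0, 48, 72 and 96 h. At 0 h G6pc had 19.95 CPM in them (9.57 to 36.7) and 407 in the rest, Slc2a2 had 36.9 and 463, Pck1 71.8 and 748, and Gys2 55.9 and 419. Pygl and Ppp1r3b differed less, with 161 against 299 CPM and 114 against 211. Later each member differed less between the set and the rest, though Pygl barely so at 96 h, with a log2 ratio of -0.88 after -0.90 at 0 h. The later sets were shallow, with median depths of 2561, 2057 and 1675 counts at 48, 72 and 96 h. In 214, 214, 655 and 334 nuclei at 0, 48, 72 and 96 h the counts at both kinds of marker lay within 2 of each other. The part of this uncertain assignment in the smaller differences was not tested. At 48 h Ppp1r3b had 112 CPM in the set and 118 in the rest. At 72 h G6pc had 80.4 against 102, and Pcx 115 against 112. At 96 h G6pc had 136 against 188. Gys2 had 142 against 72.4, Pcx 142 against 113 and Ppp1r3b 149 against 144, each with overlapping intervals and no more than 24 counts in the set. Alb, one of the markers that defined the set, had 18.0, 39.0, 86.8 and 86.7 CPM in it at 0, 48, 72 and 96 h. The thinned shares at 0 h were 2.16% of 139 such nuclei for G6pc and 4.32% for Gys2, with median depths of 4358 counts in this set and 27442 in the rest before thinning. Leaving these nuclei out changed no member's direction or its side of the fold.

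Gluconeogenesis is known to be stronger near the portal vein, so the members were also compared between nuclei of the same library, where the peaks are the same on both sides. Nuclei with at least 10 counts over 10 portal markers (such as Cyp2f2 and Hal) and 10 central markers leaned portal if their portal share was above that of their library, and central otherwise. There were 2181 portal-leaning and 1303 central-leaning nuclei at 0 h, 1939 and 1347 at 48 h, 1472 and 1123 at 72 h, and 895 and 654 at 96 h. Central-leaning nuclei were deeper in every library, with a median of 37908 counts against 27002 at 0 h. The classes are ends of a range, and 461, 528, 386 and 236 nuclei lay within 5 percentage points of the dividing share. Fbp1 was higher in portal-leaning nuclei in all 4 libraries, with log2 ratios of 0.46, 0.34, 0.34 and 0.38 at 0, 48, 72 and 96 h. Pck1 was higher there too, at 0.28, 0.34, 0.42 and 0.41, and for both genes the intervals of the sets were apart in each library. Over all genes the 5% and 95% quantiles of this ratio were -0.29 and 0.28 at 0 h and -0.47 and 0.45 at 96 h, so that Pck1 at 0 h and both genes at 96 h were inside them.

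For the other members the portal-to-central ratio was smaller or varied. Gys2 was at 0.33 at 0 h, beyond the 95% quantile, and at 0.10, -0.12 and 0.06 later, where the intervals overlapped. G6pc was at 0.04, 0.06, 0.37 and 0.15, with intervals apart only at 72 h, and Slc2a2 at 0.15, 0.06, 0.21 and -0.02, with intervals apart at 0 and 72 h. Pcx, at 0.01, -0.05, 0.06 and -0.17, and Ppp1r3c, at 0.05, -0.24, -0.28 and -0.05, had overlapping intervals in all 4 libraries. For Ppp1r3c at 48 h they overlapped only at their ends, near 38.5 CPM. Pygl and Ppp1r3b were 0.09 and 0.07 higher in portal-leaning nuclei at 0 h with intervals apart, and overlapped later. Thinning each nucleus to 2000 counts also left smaller sets under the same rule, so depth and the nuclei compared changed together. There were 590 portal-leaning and 381 central-leaning nuclei at 0 h, and 183 and 61 at 96 h. The direction of Fbp1 and Pck1 was kept in all 4 libraries, but 8 of the 36 ratios changed sign, among them G6pc at 0 h, which went to -0.29. The others were Pcx at 0 h, Pygl at 48 h, Ppp1r3b at 72 h, and G6pc, Gys2, Pygl and Slc2a2 at 96 h. Thinned, Ppp1r3c was at 0.11 at 0 h and at -0.50, -0.76 and -0.87 at 48, 72 and 96 h.

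**Figure D4:**
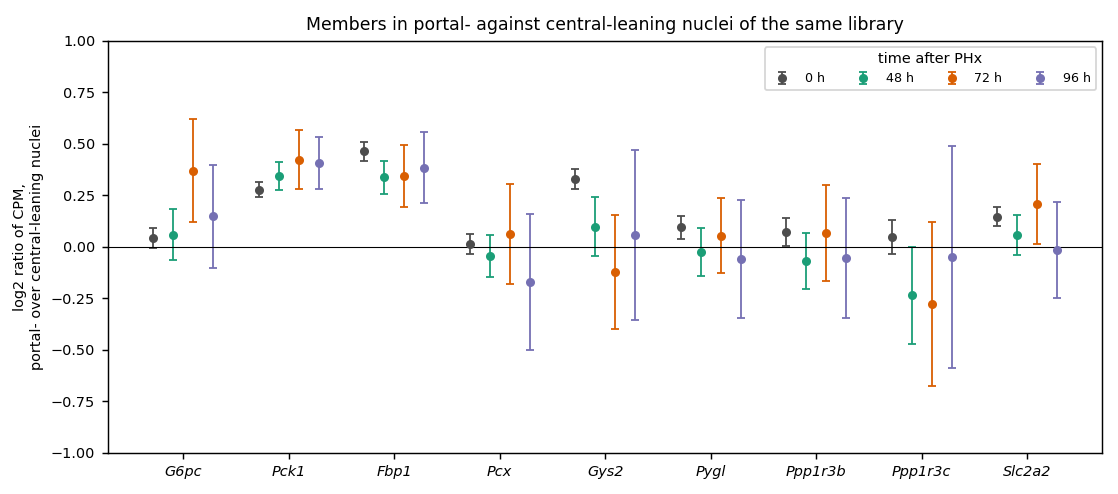
Log2 ratio of CPM in portal-leaning over central-leaning nuclei of the same library for the 9 genes (points, 1 per library), with bars from the ends of the 95% Poisson intervals of both levels. Fbp1 and Pck1 lie above 0 in all 4 libraries, and beside these the highest points are G6pc at 72 h (0.37) and Gys2 at 0 h (0.33).

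The other genes of the pathway differed less as a group. Of 48 genes of glycolysis, gluconeogenesis, glycogen and sugar handling, 47 passed the minimum level and Ppp1r3d did not. They include Fbp2, which shared a peak with Fbp1 in all 4 libraries, had the same counts as Fbp1 at 0 and 48 h and is 1 of those lower at 72 h. At 48 h 13 were at least 1.5-fold lower and 4 higher, at 72 h 16 and 5, and at 96 h 15 and 5. Over all genes the shares lower were 7.44%, 16.5% and 17.9%, and those higher 14.2%, 20.3% and 19.1%. Their median log2 ratios were -0.22, -0.43 and -0.29, with median log2 length ratios of 0.13, -0.31 and -1.21 and medians per kb of -0.30, 0.08 and 1.18. The lowest ratios at 48 h were those of Galk1 (galactokinase) at -3.40, Ugp2, which makes the UDP-glucose that Gys2 uses, at -1.75, and Gpi1 (glucose-6-phosphate isomerase) at -1.43. At 72 h they were Galk1 at -3.89, Ugp2 at -2.13 and Slc37a4, the glucose 6-phosphate transporter that works with G6pc, at -1.66. At 96 h they were Galk1 at -3.93, Pklr (liver pyruvate kinase) at -2.40 and Ugp2 at -2.26. Each of these 5 genes had a shorter covered length at the named times, for example 57290 bp at 0 h and 3959 bp at 96 h for Ugp2. At 0 h Galk1, at 245 CPM, shared a peak with H3f3b, which it did not share later, and over its promoter its log2 ratios were -0.46, -0.57 and -0.66. Ugp2 likewise shared a peak with Vps54 at 0 h only, Slc37a4 with Rps25 and Trappc4 at 0 h only, and Pklr with Hcn3 until 72 h, and counts in a shared peak cannot be told apart.

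The highest ratios of the wider pathway were those of genes with low counts in undamaged liver. Hk2, a hexokinase of tissues other than adult liver, was at 4.88 CPM at 0 h and at 16.5, 27.5 and 8.10 CPM later. Pygb, the brain phosphorylase, was at 25.2, 57.6, 96.3 and 47.9 CPM, and Hk1 at 8.10, 18.0, 27.9 and 12.0 CPM. Among the 47 genes past the minimum level, their log2 ratios were the 3 largest at 48 h (1.76, 1.19 and 1.15) and at 72 h (2.49, 1.93 and 1.79). The higher counts at 48 and 72 h came with longer peaks. Per kb all 3 genes were below 0 h at both times, with 4.21, 3.63 and 4.04 CPM for Hk2 at 0, 48 and 72 h, 4.51, 3.76 and 4.17 for Hk1, and 6.61, 4.08 and 4.73 for Pygb. Covered length at Pygb went from 3808 to 14120 bp between 0 and 48 h, and its promoter log2 ratio at 48 h was 0.07, beside 3.05 for Hk2 and 0.99 for Hk1. At 96 h the largest among the genes past the minimum level were Gyg, the primer of glycogen, at 1.04, Pygb at 0.93 and Pgm2 at 0.82. Pygb shared peaks with Abhd12 at 48 and 72 h.

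Among 16 genes of factors and receptors that act on these genes, 4, 6 and 5 were at least 1.5-fold lower at 48, 72 and 96 h, beside 7.44%, 16.5% and 17.9% of all genes, and none was higher, beside 14.2%, 20.3% and 19.1%. Their median log2 ratios were -0.20, -0.41 and -0.32, and per kb -0.13, 0.01 and 0.90. The 4 at 48 h are named here after their values were seen. Mlxipl (ChREBP), the glucose-sensing factor, was at -0.82, -1.06 and -0.69, Klf15 at -0.80, -1.04 and -0.39, Cebpa at -0.64, -1.31 and -0.77, and the glucagon receptor Gcgr at -0.63, -0.83 and -0.71. Klf15 shared a peak with Aldh1l1 at 0 h only, and Gcgr with Mcrip1 in all 4 libraries. The factors Foxo1, at 0.32, -0.33 and -0.56, and Hnf4a, at -0.01, -0.20 and 0.01, likewise named after their values were seen, stayed within the fold over the gene, but over its promoter Hnf4a, which shared a peak with R3hdml at 0 and 48 h, was at -0.07, -1.90 and -1.55. The 10 hepatocyte markers had median log2 ratios of 0.28, -0.15 and 0.20, and 0, 4 and 2 of them were at least 1.5-fold lower while 0, 0 and 3 were higher, beside the same shares of all genes. Markers of the zones of the liver lobule had medians below 0 too: of 10 portal markers 4, 7 and 6 were at least 1.5-fold lower, with medians of -0.23, -0.78 and -0.62, and of 10 central markers 1, 3 and 5 were, with medians of -0.07, -0.22 and -0.61. None of either list was 1.5-fold higher.

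**Figure D5:**
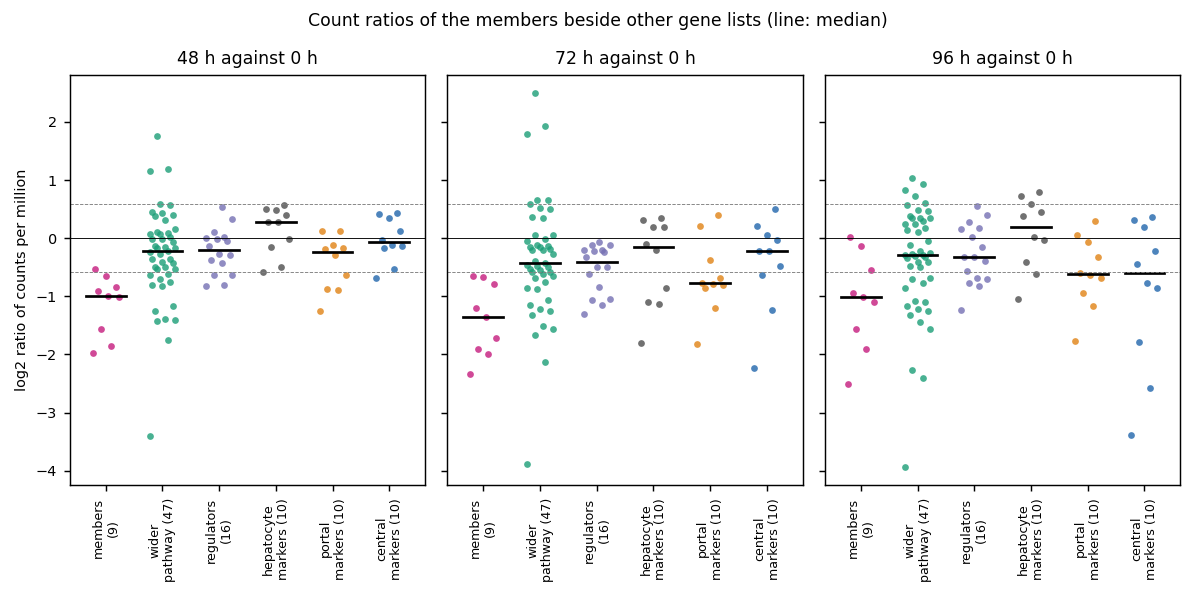
Log2 ratios of CPM to 0 h for the 9 members, 47 genes of the wider pathway, 16 regulators and 10 hepatocyte, 10 portal and 10 central markers (1 point per gene), with the median as a line and the 1.5-fold limits dashed. The members' medians of -0.99, -1.35 and -1.01 are the lowest of the 6 lists at each time, with the portal markers next at all 3 times.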

How the data were processed

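Nuclei of mouse hepatocytes were profiled by scATAC-Seq in 4 libraries, 1 per time point. The authors deposited, for each library, a matrix of whole-number counts of transposase cut sites per peak and barcode, with its peak list and barcodes. Per the submitters' processing notes the matrices came from Cell Ranger ATAC on mm10, and the file headers name software version 1.1.0. Peaks were called per library, with no score, and no column of any sample was left unmapped. Between 87.3% and 88.6% of the nonzero counts were even, since both ends of a fragment add up to 2, so Poisson intervals were taken on counts divided by 2. No source used here gives the cutoffs of the study's own filter on nuclei.

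Barcodes with at least 1000 counts were kept and summed per library, and no doublet caller was run. A peak was counted whole if it touched the gene body plus 2 kb upstream, or the promoter. Genes with a mean of at least 5 CPM were tested for size, called at 1.5-fold, with no p-value, since each group had 1 library. Shares of nuclei were taken after thinning to 2000 counts, with exact binomial (Clopper-Pearson) intervals. The windows and log2 ratios were tested on simulated libraries drawn from the 0 h peaks alone, with changes set only at genes that shared no peak. Peaks that differ between libraries, or that genes share, were therefore not covered by this test. All 9 members were named, as were the 3 largest rises and falls of the wider pathway in each comparison and the 3 genes nearest to the member with the widest range. The members and lists were chosen with earlier results of these data known. Alternatives covered the minimum per barcode, depth, doubtful nuclei, binarised counts, shared regions, weighting by overlap, length, centring, peaks of near-equal length (under 1.25 times, where each of the pair overlapped no other peak of the other library) and the windows. Leaving out shared barcodes, the promoter alternatives by gene, and the shares of all genes called per kb and binarised were chosen after seeing the data. Python 3.11.15, numpy 2.4.6, pandas 2.3.3, scipy 1.17.1 and matplotlib 3.10.9 were used, and sequences came from RefSeq (GRCm38.p6).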

Additional observations from a re-analysis of the deposited data

How the results depend on the processing

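No paired analysis was possible because each time point has 1 library. The limits are these: no replicate spread could be measured, peaks were called per library, and the library at 96 h had the fewest counts and the shortest peaks, so a stretch outside its peaks has no value here. Every deposited barcode, a minimum of 3000 counts, leaving out the 5% deepest nuclei, nuclei low in hepatocyte markers or shared barcodes, centring and the other gene windows kept the members' median over gene counts within 0.1 of the reported log2 value at all 3 times. Calls moved more: at 48 h 7 of the 9 were at least 1.5-fold lower with 5 kb upstream (Pck1 at -0.40), over shared regions (Pck1 at -0.57) and with peaks weighted by overlap, and 9 without shared barcodes. At 72 h 8 were over shared regions (Pygl at -0.57) and weighted. At 96 h 7 were when centred (Ppp1r3b at -0.64) and over shared regions (Ppp1r3b at -0.66), and 5 weighted (G6pc at -0.57), when Pck1 was past the fold as higher. No share of all genes past the fold is given for these settings, so these counts of members cannot be set against a background. The counts of all genes past the fold without a minimum level stayed within 1.5 times. The cause of the shifts below was not tested. By construction, scaling per kb acts on covered length, while binarising acts on peak length and on depth per nucleus together.

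Over gene counts, the median at 48, 72 and 96 h was -0.054, 0.12 and 0.88 with binarised counts and -0.70, -0.53 and 0.33 per kb. Peaks weighted by overlap gave -0.89 at 96 h. Peaks of near-equal length that pair one to one gave -0.49 at 48 h over Fbp1, Pcx and Pygl, and no value for the other members or at 72 and 96 h. Over promoter counts, the median at 48, 72 and 96 h was -0.054, -0.20 and -0.59 binarised, -0.62, -0.44 and 0.70 weighted, -0.64, -0.44 and 0.77 per kb, and -0.76, -1.604 and -2.72 centred on all genes. Shared regions gave -0.84 at 48 h and -2.63 at 96 h, near-equal peaks -0.45 and the gene start alone -0.84 at 48 h.

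By gene, binarised gene counts turned Pck1 (0.60), Fbp1 (0.54), Ppp1r3b (0.071) and Slc2a2 (0.94) at 48 h, G6pc (0.048), Pck1 (1.11), Fbp1 (1.18), Pygl (0.12), Ppp1r3b (0.71) and Slc2a2 (1.15) at 72 h, and G6pc (0.88), Fbp1 (1.96), Pygl (0.027), Ppp1r3b (1.04) and Slc2a2 (1.596) at 96 h. Weighting or scaling per kb turned Pck1 at 48 h (0.35) and 72 h (0.0096), for genes and promoters, and weighting turned Fbp1 at 96 h (0.024). Scaling per kb also turned Fbp1 (0.080), Pcx (1.101), Gys2 (0.96), Pygl (0.66), Ppp1r3b (0.33) and Slc2a2 (0.25) at 96 h. Pck1 at 96 h, reported at 0.02, was 1.497 weighted or per kb and 1.89 binarised, past the fold as higher, and between -0.085 and -0.014 when centred, over shared regions and without shared barcodes. Over promoters, binarised counts turned Pck1 (0.60), Fbp1 (0.54), Ppp1r3b (0.071) and Slc2a2 (0.11) at 48 h, G6pc (0.048), Pck1 (1.11), Fbp1 (1.18) and Pygl (0.23) at 72 h, and Ppp1r3b (0.22) at 96 h. Scaling per kb turned the Pcx promoter at 72 h (0.088). At 96 h weighting and scaling per kb turned Fbp1 (0.70 and 0.70), Pcx (1.13 and 1.35), Gys2 (1.255 and 1.255), Pygl (0.67 and 0.81), Ppp1r3b (0.77 and 0.77), Ppp1r3c (0.25 and 0.25) and Slc2a2 (0.25 and 0.25).

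Without thinning, the median share of nuclei with a count at a member was 87.3%, 56.3%, 28.3% and 26.4% at 0, 48, 72 and 96 h. Thinning, which also left fewer nuclei in both sets, moved the members' median portal-to-central ratio at 0 h from 0.09 to 0.21.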
